A study of Homo sapiens with 6 samples.

Results

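Kinetochore and centromere genes were examined in MDA-MB-231 cells, a human triple-negative breast cancer (TNBC) cell line, after treatment with Salvia chinensis Benth (SCH; salvia chinensia benth in the labels). The members were 42 listed genes, found by exact gene name among the 58735 genes of the deposited tables, and all 42 were present. The series compared 3 samples of cells labelled wild type and given vehicle with 3 samples given an aqueous SCH extract at 100 mg/l, both for 24 h, to learn which transcripts differ under the extract. The repeats were described as biological, all came from this single line, and no further allele or agent was named for either group. mRNA was purified on poly-T beads, and the depth per library was 20291379, 18714240 and 18334857 assigned reads with vehicle, and 16836369, 17979434 and 18414924 with SCH.

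The kinetochore is the protein machine that joins a chromosome to spindle microtubules in mitosis. It is built on centromeric chromatin marked by the histone H3 variant CENP-A, on which the constitutive centromere-associated network (CCAN) sits throughout the cell cycle. In mitosis the CCAN recruits the KNL1, Mis12 and Ndc80 complexes, the last of which grips the microtubule with help from the Ska complex, while an outer fibrous corona and the spindle checkpoint proteins hold back anaphase until every chromosome is attached. Many of these genes are transcribed mainly in G2 and M phase, and a short promoter element, the cell cycle genes homology region (CHR), is known from promoters with that timing.

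Promoter sequence was available for 35 of the 42 members, as windows from 250 bases before to 50 bases after the transcription start in RefSeq (GRCh38.p14). BUB3, KNL1, MIS18A, KNTC1, CENPM, CENPL and CENPH had none in the table. The core letters of the CHR (TTTGAA or TTCGAA, either strand) are shown in capitals for the 4 members with the largest falls that held them, and for the 3 members not past the threshold whose match lay nearest the start, which were chosen after their values were seen. Each stretch is 30 bases long and is written 5′ to 3′ on the strand of the gene.

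CENPA, chr2:26786026-26786055, plus strand, lowered: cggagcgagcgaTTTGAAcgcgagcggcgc
CENPF, chr1:214603215-214603244, plus strand, lowered: ccggtggcggctgcgggcagTTTGAAttag
SPDL1, chr5:169583741-169583770, plus strand, lowered: gcgggaactgcaTTCAAAtatcccaggcgc
NUF2, chr1:163321958-163321987, plus strand, lowered: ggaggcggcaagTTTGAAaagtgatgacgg
OIP5, chr15:41332573-41332602, minus strand, not past the threshold: gcctggcgtgtaTTCGAAaggaaggcgccg
SGO1, chr3:20186192-20186221, minus strand, not past the threshold: gaggcggaaaatTTCGAAtgtggcggcggt
SPC25, chr2:168890416-168890445, minus strand, not past the threshold: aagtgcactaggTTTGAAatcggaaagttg

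Counting the transcription start as 1 and the base before it as -1, the first base of the match lay at -18 in CENPA, 41 in CENPF, -20 in SPDL1 and 17 in NUF2, and at 2 in OIP5, -3 in SGO1 and -3 in SPC25. In GENCODE 29 each stretch lies in the first exon of at least 1 transcript of its gene, outside the coding sequence. SPC25 held another match at -247. Of the remaining members with a match, most also had it near the start, namely NDC80 (-3 and 4), SKA3 (-3), CENPN (4), ZWINT (-17 or -31, depending on the window), CENPW (18), MAD2L1 (25), SKA1 (35) and CENPO (37). In HJURP (-111), CENPC (-90) and ZW10 (-224) it lay further upstream. CENPF is shown further. Its promoter also held 3 CCAAT boxes within the 150 bases before its start (CCAAT, or ATTGG on the other strand, in capitals). These are the binding letters of the factor NF-Y. The lowered HJURP, SKA2 and CENPX, and CENPK, which did not pass the threshold, also held 3 within that distance. The trait was therefore not particular to CENPF.

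CENPF, chr1:214603045-214603194, plus strand: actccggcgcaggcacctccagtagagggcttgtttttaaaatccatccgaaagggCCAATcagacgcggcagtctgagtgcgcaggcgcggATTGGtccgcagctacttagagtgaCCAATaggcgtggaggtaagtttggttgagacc

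Across the windows, the CHR letters were found in 18 of 35 members (51.4%), against 15.4% of all tested genes with a window (1590 of 10348). They were held by 9 of 17 lowered members (52.9%), 2 of 6 raised members (33.3%) and 7 of 12 members not past the threshold (58.3%). CCAAT was found in 24 of 35 members (68.6%), against 43.1% of tested genes, and in 11 of 17 lowered, 3 of 6 raised and 10 of 12 members not past the threshold. E2F letters (TTTCCCGC, TTTCGCGC, TTTGCCGC or TTTGGCGC, either strand; some can overlap each other) were in 4 of 35 members (11.4%), against 6.61% of tested genes. A match describes letters in a window and was not tested as a binding site.

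All 42 members passed edgeR's filter on low counts, with between 121 and 10371 counts per sample. After SCH, 21 members were lowered, 7 were raised and 14 did not pass the threshold, an adjusted p under 0.05 in edgeR's quasi-likelihood test with Benjamini-Hochberg adjustment over all 14736 tested genes. The share of members past the threshold was 66.7%, where 58.7% of all tested genes were called in either direction. The lowered members made up 50% of the list, against 29.4% of all tested genes, and the raised members 16.7%, against 29.3%. The median log2 fold change was -0.14 over the members and -0.0034 over all tested genes. Members ranged from -1.05 (CENPA) to 0.45 (CENPT) on the log2 scale. With library size as the only scaling, the median of all tested genes moved to 0.10 and that of the members to -0.04, with 15 members lowered and 9 raised. The raised share of the members' calls was then 37.5% in place of 25%, and that of all genes' calls 62.6% in place of 49.9%.

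At least 0.5 on the log2 scale was lost by 8 members, namely CENPA, CENPF, SPDL1, CENPE, CENPP, MAD1L1, NUF2 and SGO2, and gained by 0, where 14.2% of all tested genes were lowered and 12.6% raised by that much. In 19 members every SCH sample lay below every vehicle sample, against 31.3% of all tested genes. In 6 members every SCH sample lay above, against 31.1% of all tested genes, and in 17 the groups overlapped, where 62.4% of all tested genes had groups apart. The summed normalised level of the 42 genes, in CPM (each count divided by its TMM-adjusted library size), was 3164, 3107 and 3296 in the vehicle samples and 2686, 2746 and 2763 in the SCH samples. It was 14.3% lower on average under SCH, with no overlap between the groups (exact two-sided permutation test, p = 0.1, the smallest that 3 against 3 allow), and 8.01% lower with library size as the only scaling. In bulk samples, fewer cells in mitosis and less RNA per cell cannot be told apart.

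**Figure D1:**
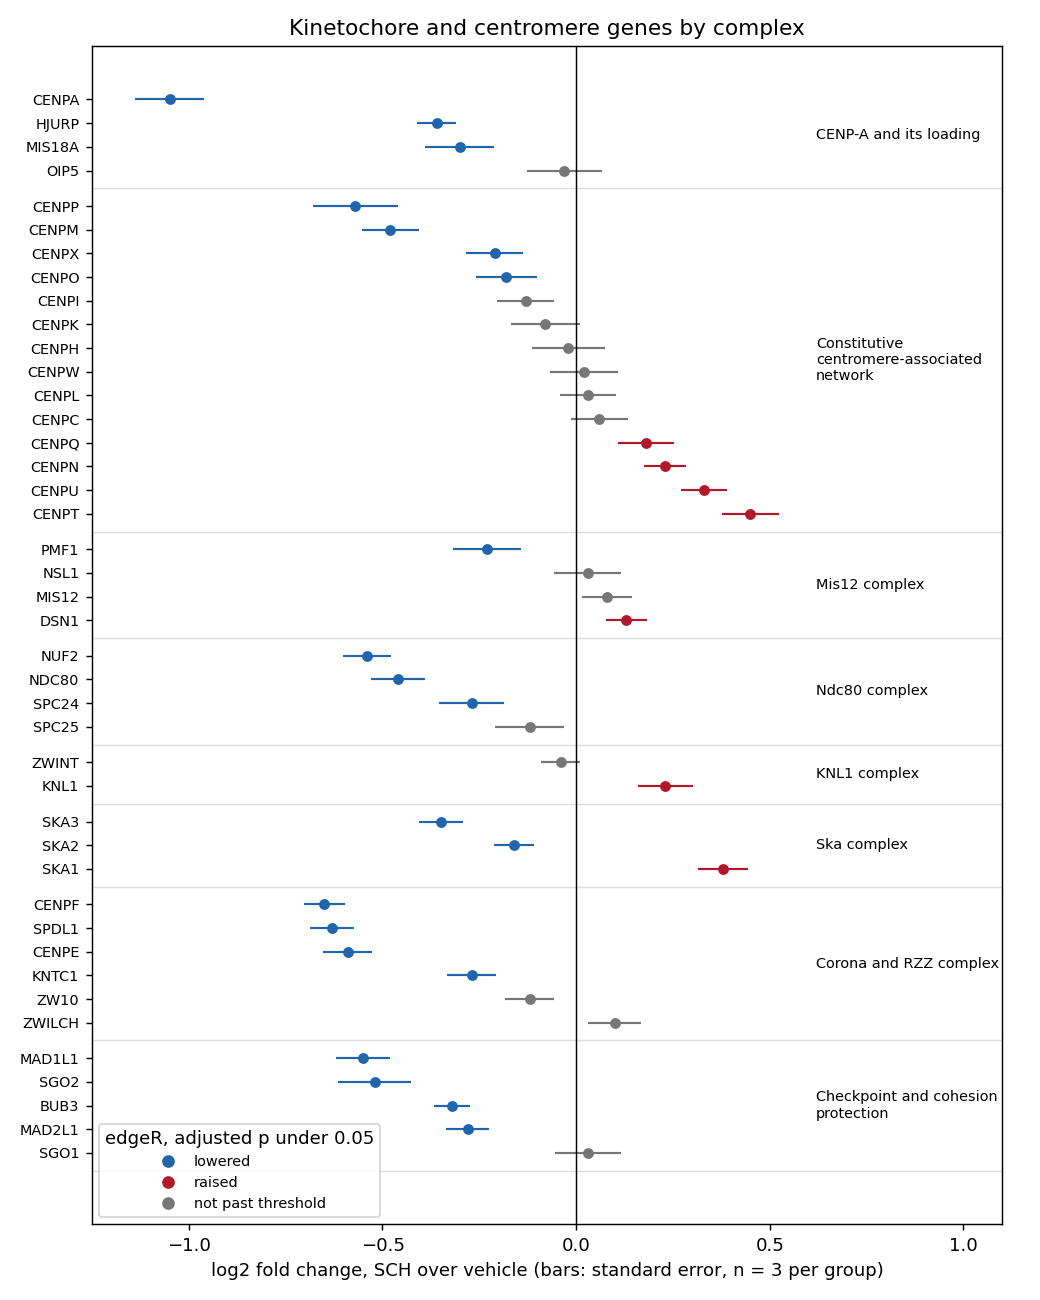
The log2 fold change of SCH over vehicle (horizontal axis) is plotted for each of the 42 genes, grouped by complex, with the standard error as a bar (n = 3 per group). Blue points are lowered, red raised and grey not past the threshold; CENP-A loading, Ndc80, corona and checkpoint genes hold no red point, while the CCAN spreads over both sides from -0.57 to 0.45.

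Of the 4 genes for CENP-A and its loading factors, 3 were lowered (75%, against 29.4% of all tested genes), 0 were raised and OIP5 did not pass the threshold, with a median of -0.33. CENPA (ENSG00000115163, chr2:26764289-26801067, GRCh38) encodes the centromeric histone itself. Its normalised CPM was 30.7, 28.9 and 26.8 in the vehicle samples and 15.1, 14.5 and 12.4 in the SCH samples. All SCH samples were far below all vehicle samples, and the fitted level was 51.6% lower. The log2 fold change of -1.05 ± 0.09 (SE) was the largest in size of any member (edgeR adjusted p = 7.97e-10).

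HJURP, the chaperone that deposits CENP-A at centromeres, was lowered by less, at -0.36 ± 0.05 (edgeR adjusted p = 1.39e-06). Its CPM was 127, 127 and 123 under vehicle and 97.8, 97.4 and 97.0 under SCH, so its groups were apart and its replicates nearly equal. MIS18A, a subunit of the Mis18 complex that licenses centromeres for new CENP-A, was lowered by -0.30 ± 0.089 (edgeR adjusted p = 0.00659), a call lost with library size as the only scaling (edgeR adjusted p = 0.0659). OIP5, the Mis18 beta subunit, had a log2 fold change of -0.03 (edgeR adjusted p = 0.795). The deposited FPKM, which divides counts by gene length so that genes can be compared, gave a CENPA to OIP5 ratio of 1.42, 1.34 and 1.33 under vehicle and 0.738, 0.704 and 0.591 under SCH. CENPA was the more abundant of the pair in every vehicle sample and the less abundant in every SCH sample. The pair was picked as the lowest and highest fold change of the group, so its ratio is a description without a test, and 38% of the exonic bases of OIP5 also belong to OIP5-AS1.

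The CCAN, which binds CENP-A nucleosomes and carries the rest of the kinetochore, had 4 of 14 genes lowered, 4 raised and 6 not past the threshold, with a median of -0.0021. Its shares of 28.6% lowered and 28.6% raised were near those of all tested genes, at 29.4% and 29.3%. Its summed CPM was 587, 596 and 592 under vehicle and 613, 615 and 629 under SCH, which is 4.59% higher, or 12.3% higher with library size as the only scaling. CENPT (ENSG00000102901, chr16:67828157-67847811) encodes the histone-fold protein that recruits Ndc80 directly. Its CPM was 51.9, 52.6 and 44.7 under vehicle and 74.9, 67.3 and 61.4 under SCH. All SCH samples exceeded all vehicle samples, although each group spread by more than for most members. The log2 fold change was 0.45 ± 0.074, the highest of the 42 (edgeR adjusted p = 1.69e-05).

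The other raised CCAN genes were CENPU, CENPN and CENPQ. CENPU, a CENP-O group subunit that docks Polo-like kinase 1, had 86.4, 90.2 and 97.7 CPM under vehicle and 107, 118 and 119 under SCH, a log2 fold change of 0.33 ± 0.059 (edgeR adjusted p = 4.03e-05). CENPN, which reads the CENP-A nucleosome together with CENPL, had 75.4, 79.9 and 77.3 CPM under vehicle and 90.2, 88.9 and 93.7 under SCH, a log2 fold change of 0.23 ± 0.054 (edgeR adjusted p = 8.59e-04). Neither gene's groups overlapped. CENPQ, a microtubule-binding CENP-O group subunit, had 28.7, 27.5 and 29.1 CPM under vehicle and 30.4, 33.3 and 33.1 under SCH, at 0.18 ± 0.072 (edgeR adjusted p = 0.031). Its groups were apart by a small margin, and the call was lost in 6 of 15 alternative analyses.

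Neighbouring genes share exonic bases with several of these members, and the library kit was not stated to keep strand. The share was 19.6% in CENPT (TSNAXIP1, THAP11 and NUTF2), 11.7% in CENPU (PRIMPOL) and 22.8% in CENPN (CMC2 and others). With the 9 members of at least 10% shared bases left out, 33 members remained, of which 18 were lowered and 4 raised, with a median of -0.21. The 4 raised were CENPQ, DSN1, KNL1 and SKA1. How far reads of neighbours entered these counts was not tested.

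CENPP, a CENP-O group subunit, fell most in the CCAN. Its CPM was 10.7, 11.3 and 10.7 under vehicle and 6.94, 7.78 and 7.26 under SCH, with the groups far apart. The log2 fold change was -0.57 ± 0.11 (edgeR adjusted p = 1.44e-04). CENPP was also the least abundant member per length, with an FPKM of 1.08 ± 0.0304 (SD, n = 3) under vehicle, its gene spans 295 kb (chr9:92325484-92620533), and 42.7% of its exonic bases lie in exons of IPPK, NOL8 or another gene. CENPM, a small GTPase-like subunit, was lowered from 35.1, 35.5 and 32 CPM to 23.7, 25.7 and 24.3 CPM (-0.48 ± 0.074, edgeR adjusted p = 6.93e-06). CENPX, a histone-fold partner of CENPS, and CENPO, after which the CENP-O group is named, were lowered by -0.21 and -0.18 with overlapping groups (edgeR adjusted p = 0.0173 and 0.045), and these calls were lost in 7 and 10 of 15 alternative analyses.

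CCAN genes not past the threshold were CENPC, CENPH, CENPI, CENPK, CENPL and CENPW. CENPC, the scaffold that links CENP-A to Mis12, had a log2 fold change of 0.06 (edgeR adjusted p = 0.48). CENPH, CENPI and CENPK, which form a subcomplex with CENPM, had -0.02, -0.13 and -0.08 (edgeR adjusted p = 0.869, 0.143 and 0.451), of which CENPI passed the threshold without vehicle replicate 1 (-0.20, edgeR adjusted p = 0.0352). CENPL stood at 0.03 and CENPW, the histone-fold partner of CENPT, at 0.02 (edgeR adjusted p = 0.762 and 0.889). CENPM thus was lowered while its 3 partners were not past the threshold, and CENPT was raised while CENPW was not past it. Whether these partners differ in their response was not tested.

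The Mis12 complex, the bridge between inner and outer kinetochore, held 1 lowered and 1 raised gene of 4, shares of 25% each that were near those of all tested genes (29.4% and 29.3%). DSN1, the subunit through which Aurora B controls binding to the inner kinetochore, had 77.5, 77 and 79.7 CPM under vehicle and 87.7, 84.9 and 83.9 under SCH (0.13 ± 0.054, edgeR adjusted p = 0.0413). PMF1, another subunit of the complex, had 19.7, 22 and 19.2 CPM under vehicle and 18.4, 16.3 and 17.2 under SCH (-0.23 ± 0.088, edgeR adjusted p = 0.0266). The groups of both genes were apart by small margins, and each call was lost in 6 of 15 alternative analyses. The annotation also holds a PMF1-BGLAP read-through gene that shares 23.3% of PMF1's exonic bases. MIS12 and NSL1, the remaining subunits, had log2 fold changes of 0.08 and 0.03 (edgeR adjusted p = 0.292 and 0.784), and MIS12 passed the threshold with library size as the only scaling (0.19, edgeR adjusted p = 0.0195).

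The Ndc80 complex, the main microtubule coupler, had 3 of 4 subunits lowered (75%, against 29.4% of all tested genes), with a median of -0.36. NUF2 (ENSG00000143228, chr1:163266576-163355764), which pairs with NDC80 to form the microtubule-binding end, had 66.3, 64 and 68 CPM under vehicle and 43.6, 45.4 and 47.4 under SCH. The 6 samples formed separate groups with narrow spread, and the log2 fold change was -0.54 ± 0.061 (edgeR adjusted p = 6.54e-08). NDC80 itself had 57.6, 56.4 and 66.7 CPM under vehicle and 42, 43.4 and 46.2 under SCH (-0.46 ± 0.07, edgeR adjusted p = 5.91e-06). SPC24, in the dimer that faces the inner kinetochore, was lowered by -0.27 (edgeR adjusted p = 0.00958), a call lost with library size only and without SCH replicate 2 (edgeR adjusted p = 0.098 and 0.088). Its partner SPC25 had -0.12 (edgeR adjusted p = 0.281). The summed CPM of the complex was 173, 167 and 183 under vehicle and 128, 127 and 138 under SCH, 24.8% lower.

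KNL1 and ZWINT form the KNL1 complex, the platform for BUB kinases. KNL1 (ENSG00000137812, chr15:40594020-40664342) had 51.6, 49.6 and 61.1 CPM under vehicle and 60.2, 65.4 and 64.9 under SCH. The groups overlapped, because the vehicle sample at 61.1 exceeded the lowest SCH sample, and the log2 fold change was 0.23 ± 0.071 (edgeR adjusted p = 0.00688). ZWINT, the KNL1 partner that binds the RZZ complex, had 195, 190 and 183 CPM under vehicle and 192, 178 and 182 under SCH (-0.04, edgeR adjusted p = 0.499). Per length it was the most abundant member, with an FPKM of 77.0 ± 2.5 under vehicle (SD, n = 3), ahead of BUB3 at 62.7 ± 2.18 and CENPX at 42.3 ± 4.9. The members' median FPKM was 12.9 under vehicle and 11.9 under SCH.

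The 3 Ska genes all passed the threshold, where 58.7% of all tested genes did in either direction. They did not share a direction, and their product tracks the ends of microtubules. SKA1 (ENSG00000154839, chr18:50374995-50394173), its microtubule-binding subunit, had 35.8, 34.8 and 35.3 CPM under vehicle and 44.2, 47.2 and 46.4 under SCH. The vehicle samples were nearly equal and all SCH samples were well above them (0.38 ± 0.065, edgeR adjusted p = 2.25e-05). SKA3 moved the other way, from 84, 82.2 and 89 CPM to 64.2, 66.7 and 69 CPM (-0.35 ± 0.057, edgeR adjusted p = 1.28e-05). SKA2, the core subunit, was lowered by -0.16 (edgeR adjusted p = 0.00994), a call lost in 2 of 15 alternative analyses. Per length, the SKA3 to SKA1 ratio in FPKM was 2.27, 2.29 and 2.44 under vehicle and 1.4, 1.37 and 1.44 under SCH. The ratio was lower in every SCH sample, which follows from the opposite directions by which the pair was picked.

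**Figure D2:**
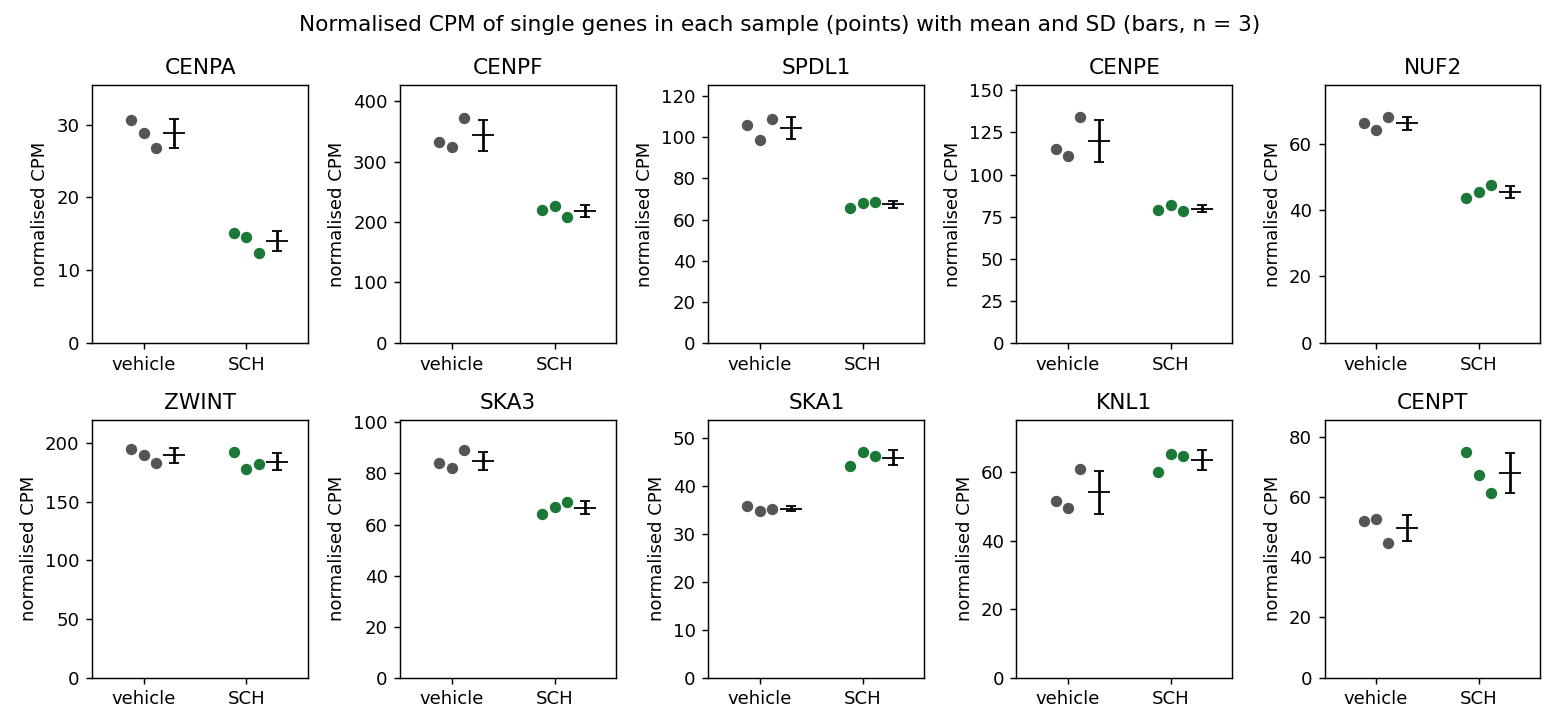
Normalised CPM (vertical axes, from 0) of 10 genes is shown in each vehicle sample (grey) and SCH sample (green), with the mean and SD as bars (n = 3). CENPA, CENPF, SPDL1, CENPE, NUF2 and SKA3 separate downwards and SKA1 and CENPT upwards, while the groups overlap in ZWINT and KNL1.

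The corona and RZZ genes had the largest percent fall in summed level of the 8 complexes. Their summed CPM was 743, 720 and 814 under vehicle and 527, 560 and 538 under SCH, 28.6% lower. Of the 6 genes, 4 were lowered (66.7%, against 29.4% of all tested genes) and 0 raised (against 29.3%). Their median was -0.43. CENPF (ENSG00000117724, chr1:214603195-214664588), a large coiled-coil protein that links kinetochores to dynein regulators, gave 45.3% of the vehicle sum. Its CPM was 333, 325 and 373 under vehicle and 220, 227 and 208 under SCH. The groups were far apart, and the log2 fold change was -0.65 ± 0.054 (edgeR adjusted p = 4.34e-10).

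SPDL1 (ENSG00000040275, chr5:169583634-169604778), the Spindly adaptor that brings dynein to the corona, had 106, 98.8 and 109 CPM under vehicle and 65.4, 68.3 and 68.6 under SCH. Its groups were far apart (-0.63 ± 0.056, edgeR adjusted p = 1.43e-09). CENPE (ENSG00000138778, chr4:103105806-103198409), the kinesin that carries chromosomes to the metaphase plate, had 115, 111 and 134 CPM under vehicle and 78.9, 81.9 and 78.3 under SCH. The third vehicle sample was higher than the others and the SCH samples were close together (-0.59 ± 0.063, edgeR adjusted p = 3.02e-08). Among the RZZ subunits, KNTC1 (ROD) was lowered by -0.27 (edgeR adjusted p = 6.86e-04), while ZW10 and ZWILCH had -0.12 and 0.10 (edgeR adjusted p = 0.111 and 0.191). ZWILCH passed the threshold as raised with library size only and without SCH replicate 1 (0.21 and 0.19, edgeR adjusted p = 0.0116 and 0.015), and ZW10 as lowered with upper quartile scaling (-0.15, edgeR adjusted p = 0.0452). The lowered members thus were the kinesin CENPE, the dynein adaptor SPDL1, CENPF, and 1 of the 3 RZZ subunits.

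Of the 5 checkpoint and cohesion protection genes, 4 were lowered (80%, against 29.4% of all tested genes) and 0 raised (against 29.3%). Their median was -0.32. MAD1L1 (ENSG00000002822, chr7:1815793-2233243), which templates MAD2 activation at unattached kinetochores, had 83.7, 73.6 and 71.1 CPM under vehicle and 56.6, 52.1 and 47.7 under SCH. The groups did not overlap (-0.55 ± 0.07, edgeR adjusted p = 4.64e-07). MAD1L1 spans 417 kb, and with it and CENPP left out, as the only members over 200 kb, 19 of 40 members were lowered and 7 raised.

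MAD2L1, the inhibitor of CDC20, had 141, 140 and 155 CPM under vehicle and 114, 125 and 122 under SCH (-0.28 ± 0.055, edgeR adjusted p = 1.53e-04). BUB3, the adaptor that brings BUB1 and BUBR1 to KNL1, had 532, 523 and 560 CPM under vehicle and 413, 434 and 443 under SCH (-0.32 ± 0.047, edgeR adjusted p = 3.14e-06). It supplied 16.9% of the summed vehicle level of all 42 genes, the most of any. SGO2, a shugoshin that guards centromeric cohesin, had 42.6, 34.9 and 49.7 CPM under vehicle and 27.3, 30.3 and 31.3 under SCH, a log2 fold change of -0.52 ± 0.094 (edgeR adjusted p = 5.33e-05). Its vehicle samples spread widely but all stayed above the SCH samples. SGO1, the mitotic shugoshin, had a log2 fold change of 0.03 (edgeR adjusted p = 0.799), with 17.7% of its exonic bases shared with SGO1-AS1.

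Between complexes, the summed level was lower in every SCH sample than in every vehicle sample for CENP-A and its loading (24.9% lower), Ndc80 (24.8%), Ska (8.49%), the corona and RZZ (28.6%) and the checkpoint group (20.7%). It was higher in every SCH sample for the CCAN (4.59%), and the groups overlapped for Mis12 (4.54% higher) and KNL1 (1.7% higher). The exact two-sided permutation test gave p = 0.1 for each of the 6 complexes without overlap (0.133 adjusted over the 8), 0.2 for Mis12 (adjusted 0.229) and 0.4 for KNL1 (adjusted 0.4). This permutation test cannot pass 0.05 with 3 samples against 3. The sums also depend on the scaling. With library size alone, the Ska groups overlapped and the change was -1.72% (exact permutation test, p = 0.6), while Mis12 and KNL1 were higher in every SCH sample, by 12.3% and 9.24%. The CENP-A, Ndc80, corona and checkpoint sums were still lower in every SCH sample under that scaling. HJURP alone made up 65.6% of the vehicle sum of the CENP-A group, and BUB3 65.4% of that of the checkpoint group.

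**Figure D3:**
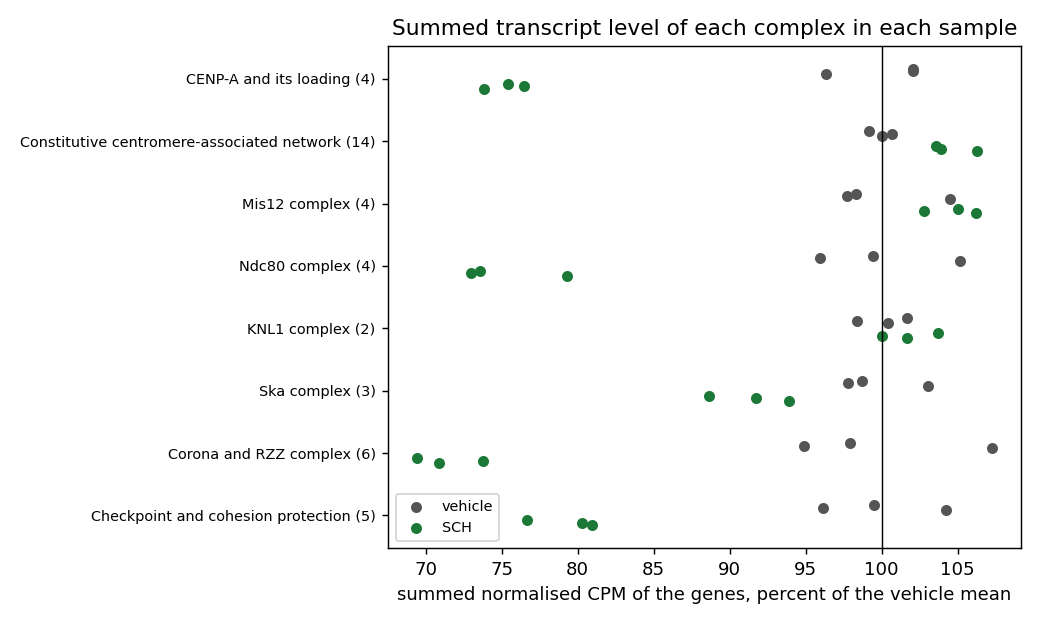
The summed normalised CPM of each complex in each sample is plotted as a percent of the vehicle mean (horizontal axis, not starting at 0), with vehicle in grey, SCH in green and the number of genes in parentheses. SCH points lie left of all vehicle points for 5 complexes, right of them for the CCAN, and the groups overlap for Mis12 and KNL1; with library size as the only scaling, Ska overlaps and Mis12 and KNL1 lie to the right.

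Other genes of the same machinery, taken from lists of 37 further kinetochore and centromere genes, 23 cohesin and condensin genes and 24 DNA replication and S phase genes, were set beside the members. Of the 37 further kinetochore genes, 25 were lowered, 4 were raised and 8 did not pass the threshold, with a median of -0.32. With library size as the only scaling, 19 of the 37 were lowered and 7 raised. Their shares in the main analysis were 67.6% lowered and 10.8% raised, against 29.4% and 29.3% of all tested genes. Their largest changes were in PLK1, the mitotic Polo-like kinase (-1.93 ± 0.057), CDC20, the anaphase-promoting complex activator (-1.50 ± 0.049), CDCA8, the borealin subunit of the chromosomal passenger complex (-1.11 ± 0.052), and BIRC5, the survivin subunit (-0.99 ± 0.054), all lowered (edgeR adjusted p = 8.47e-18, 3.79e-17, 2.23e-14 and 3.1e-13). PLK1 had 162, 166 and 165 CPM under vehicle and 43.3, 45.6 and 40.4 under SCH. By their point estimates, PLK1, CDC20 and CDCA8 fell further than CENPA, the largest fall of the 42.

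Of the 23 cohesin and condensin genes, 7 were lowered and 5 raised, with a median of -0.06 that turned to 0.05 with library size as the only scaling. Their shares of 30.4% lowered and 21.7% raised stood beside 29.4% and 29.3% of all tested genes, so the lowered share was near that background. The largest changes were in ESPL1, the separase that cleaves cohesin (-0.80), STAG1, a cohesin subunit (-0.55), NCAPD2, a condensin subunit (-0.51), and ESCO2, a cohesin acetyltransferase (0.49), all past the threshold (edgeR adjusted p = 3.3e-11, 1.74e-07, 5.73e-09 and 3.56e-05). Of the 24 replication genes, 12 were lowered and 4 raised, with a median of -0.16 (11 lowered, 6 raised and -0.06 with library size as the only scaling), led by GINS2 (-0.93), MCM5 (-0.89), MCM6 (-0.77) and GINS1 (-0.70), parts of the replicative helicase (edgeR adjusted p = 3.72e-11, 1.54e-12, 2.16e-11 and 6.5e-09). The shares of the replication list were 50% lowered and 16.7% raised, against 29.4% and 29.3% of all tested genes. The members' own shares and median were thus near those of the replication list, between those of the other kinetochore genes and of cohesin and condensin. With library size as the only scaling the medians were -0.04 for the members and -0.22 for the other kinetochore genes.

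The ratio of the members' summed CPM to that of the other kinetochore genes was 0.618, 0.614 and 0.637 under vehicle and 0.724, 0.727 and 0.744 under SCH. It was higher in every SCH sample, since the other list lost 27.1% of its sum and the members 14.3% (exact two-sided permutation test, p = 0.1, adjusted over 3 ratios 0.15). Abundant genes weigh heavily in such sums. HNRNPU gave 17.5% of the other list's vehicle sum and went from a mean of 898 to 594 CPM, and BUB3 gave 16.9% of the members' sum. Against cohesin and condensin the ratio was lower in every SCH sample, at 1, 0.997 and 1.01 under vehicle and 0.907, 0.916 and 0.929 under SCH (exact permutation test, p = 0.1, adjusted 0.15). Against the replication genes the groups overlapped, at 0.851, 0.823 and 0.9 under vehicle and 0.887, 0.906 and 0.881 under SCH (exact permutation test, p = 0.3, adjusted 0.3).

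**Figure D4:**
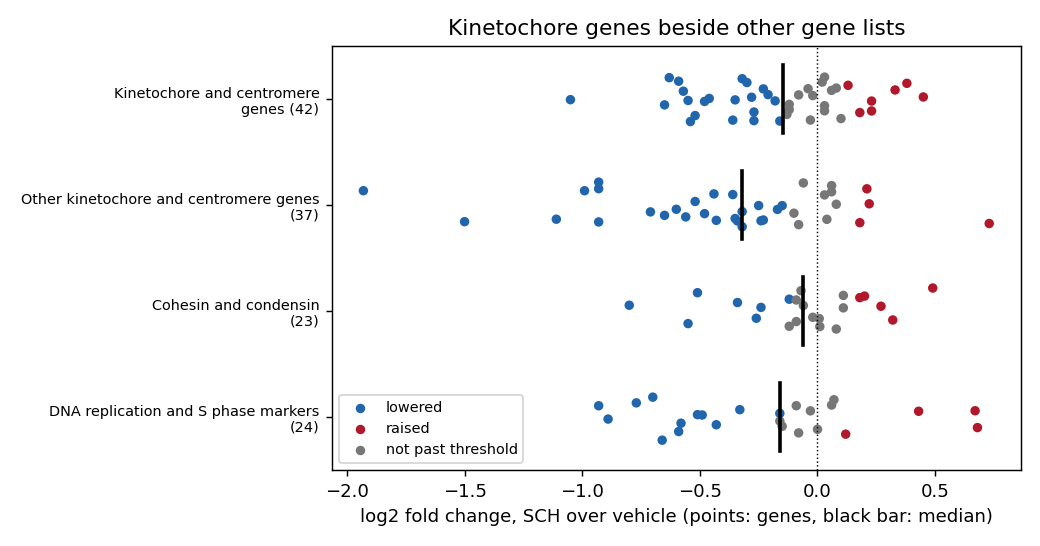
Each point is a gene's log2 fold change of SCH over vehicle (horizontal axis), for the 42 members and the 3 other lists, coloured by call, with the list's median as a black bar. The medians are -0.14, -0.32, -0.06 and -0.16 from top to bottom, and the furthest point on the left is PLK1 at -1.93.

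The line's identity was checked on marker genes. VIM, CD44, EGFR, AXL, CAV1 and MSN, mesenchymal-type markers that this line is known to express, summed to 5634, 5739 and 5711 CPM under vehicle and 4151, 4158 and 4132 under SCH. AXL, the most abundant of them, fell from 1562 ± 38.4 to 870 ± 22.3 CPM (mean ± SD, n = 3), and CD44 was at 1000 ± 31.2 and 1023 ± 23.6 CPM. VIM, EGFR, CAV1 and MSN were also lowered past the threshold (log2 fold changes -0.56, -0.28, -1.17 and -0.19). Only CD44 did not pass it. ESR1 had at most 4 counts and PGR at most 1 count in a sample, while ERBB2 was measured at 71.3 ± 2.07 and 87.3 ± 5.67 CPM. The 12 markers of other cell types together summed to 21.9, 21 and 22.8 CPM under vehicle and 15.1, 14.5 and 16.1 under SCH, of which EPCAM gave 77.7%. KRT5 and NEUROD1 were at 0 in all samples, CD3E, CDH5 and DES at 0 in the vehicle samples, and PTPRC fell from 39, 37 and 34 counts to 4, 9 and 3. These sums moved with the treatment as the kinetochore genes did, and their part in the results was not tested.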

How the data were processed

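The authors deposited a table of raw counts per gene for all 6 samples, with no normalization, and FPKM values per sample. Per the submitters' processing notes the tools were CASAVA 1.8, HISAT2 2.0.5, featureCounts 1.5.0-p3 and DESeq2 1.20.0 on GRCh38. Strand handling is not given in the sources used here, and the labels name RPMI-1640 medium where the study's methods name DMEM. Within a sample the deposited FPKM followed the count over gene length.

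Counts were fitted in R 4.3.3 with edgeR 4.0.16 (TMM, filterByExpr, quasi-likelihood test of SCH against vehicle without covariates, Benjamini-Hochberg over 14736 of 58735 genes, threshold 0.05). The common biological coefficient of variation was 5.17%. CPM used TMM library sizes, SEs were obtained as the size of the log2 fold change over the square root of F, and summed levels were compared by exact permutation. Libraries of a group were compared to look for copies, and none was found (chi-square over degrees of freedom 2.05 to 5.29). Same-numbered samples were not paired in the labels, and their deviations correlated by 0.046, -0.022 and 0.022.

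The members, the lists and the tests were chosen with earlier results of these data known. Named genes were, in each of the 8 complexes, the largest absolute change and every raised member, the 5 largest falls, every member not past the threshold, and the 4 largest changes past it in each other list, and a few further members were added after their values were seen. Exonic overlap was computed from GENCODE 29 and promoters came from RefSeq (GRCh38.p14). As alternatives, scaling by upper quartile, by RLE size factors and by library size only was tried, as were no filter on low counts, a minimum of 10 counts per sample, DESeq2 1.42.0 in place of edgeR, limma 3.58.1 on log2(FPKM + 1) and log2(FPKM + 0.1), a replicate block, each replicate left out and a minimum size of 0.5. Leaving out members with shared exonic bases or long spans, and summed levels with library size only, came later, with the values known. The edgeR procedure was tested on simulated data with a common dispersion. It recovered 73.5% of changes of 0.5 on the log2 scale and 92.9% of changes of 1, and 2.4% of its calls were false. Smaller changes were not simulated, so a member not past the threshold may still differ by a small amount.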

Additional observations from a re-analysis of the deposited data

How the results depend on the processing

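Of the 42 members, 30 kept their call in all 15 alternative analyses (15 of 21 lowered, 5 of 7 raised and 10 of 14 not past the threshold), and no called member changed direction. CENPO, CENPX, CENPQ, DSN1 and PMF1 were the least stable calls, lost in 10, 7, 6, 6 and 6 of 15. DESeq2 gave 19 lowered and 6 raised. With the replicate block, 21 members were lowered and 6 raised, as DSN1 was no longer past the threshold, and the numbers do not pair the samples: the 9 correlations between vehicle and SCH deviations ran from -0.084 to 0.066.

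With library size only, the median of all tested genes moved to 0.10 and that of the kinetochore genes to -0.04, so relative to all genes it was -0.14 as before. There, 15 members were lowered and 9 raised, 37.5% of the calls being raised in place of 25%, against 62.6% in place of 49.9% over all genes. The same scaling gave 7 raised and a median of -0.22 in the other kinetochore genes, 8 raised and 0.05 in cohesin and condensin, and -0.06 in the replication genes. Summed levels then changed by -8.01% over all 42 members, -19.3% for CENP-A and its loading, 12.3% for the CCAN, 12.3% for Mis12, -19.3% for Ndc80, 9.24% for KNL1, -1.72% for Ska, -23.3% for the corona and RZZ and -14.8% for the checkpoint group. With upper quartile scaling the medians were -0.36 in the other kinetochore genes and -0.09 in cohesin and condensin, and with limma on log2(FPKM + 1) the former was -0.28. A minimum size of 0.5 left 3943 changed genes, with 8 members lowered and 0 raised, since this setting adds a limit on size. Without members sharing at least 10% of exonic bases, 4 were raised and the median was -0.21. Those left out were the raised CENPT, CENPU and CENPN and the lowered CENPO, CENPP and PMF1. OIP5, SGO1 and ZWILCH, not past the threshold, were left out too. For the other settings the cause was not tested.

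Leaving out each replicate in turn gave 16 to 21 lowered and 5 to 7 raised members, the fewest without SCH replicate 2, and a median from -0.17 to -0.11. The median of the other kinetochore genes ran from -0.33 to -0.30, and that of cohesin and condensin from -0.05 without vehicle replicate 2 to -0.0068 without vehicle replicate 3. Depth limits the least abundant members most, and an exact permutation test of 3 samples against 3 cannot give a p below 0.1.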
